A study of Rattus norvegicus with 8 samples.

Results

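The 8 genes of homologous recombination and the DNA damage checkpoint, Brca1, Brca2, Chek1, Chek2, Fancd2, Blm, Exo1 and Msh6, were followed in the ventral prostate of TRAP rats. Members were the array features whose gene name in the deposited scanner files is one of these 8 symbols, after the endings _predicted and _mapped were removed. The rule found 7 of the 8 genes on 8 probes, and all 7 were among the 23207 genes tested. No probe carried the name Msh6. TRAP rats carry the SV40 large T antigen under the probasin promoter, which is active in prostate epithelium, and develop prostate carcinoma. All arrays came from heterozygous male TRAP rats of the SD strain at 15 weeks of age. The 4 control rats, numbered 102, 103, 104 and 106, received basal diet and tap water. The 4 treated rats, numbered 302, 303, 305 and 306, received telmisartan, an antagonist of the AT1 angiotensin receptor, in drinking water at 10 mg/kg per day for 12 weeks from 3 weeks of age. A sample label of the treated rats names 2 doses, 2 and 10 mg/kg per day, and by the series design the RNA of the group at 10 was the one hybridised.

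Each rat had 1 two-colour array, with its own RNA in Cy5 and normal ventral prostate RNA of F344 males at 6 weeks of age in Cy3. A value is log2(Cy5/Cy3) after normalisation, so that 1 stands for a 2-fold excess over the reference. Strain, age, transgene and dye all separate the reference from the TRAP rats, so a level over it was described and not tested, and transgene and the other differences cannot be told apart. Nothing in the sources states that the rats of a group came from separate litters, and p-values measure the spread between these rats. Control rats lay at positions 3 and 4 and treated rats at positions 1 and 2 on both slides, so that position on the slide and treatment cannot be told apart. The share of probes well above background in Cy5 was 64.7% to 76.8% on control arrays and 59.2% to 68.1% on treated arrays. In bulk tissue, fewer cells of a type and less RNA per cell cannot be told apart.

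Homologous recombination repairs double-strand breaks and stalled replication forks by copying an intact sister chromatid. Exo1 trims the broken ends, Brca1 promotes this trimming, Brca2 then loads the strand exchange filament, and Blm unwinds and dissolves the joined molecules. Chek2 and Chek1 are the kinases that carry the damage signal of Atm and Atr to the cell cycle machinery, and Fancd2 is the protein that the Fanconi anaemia complex ubiquitinates at crosslinked DNA. Msh6 takes part in the recognition of mismatched bases. Many of these genes are transcribed in S phase under E2F, and dividing cells hold more of their RNA.

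The 4 probes that the results below turn on are shown first, as the measurement of each gene rests on 60 bases of its transcript. They belong to Exo1, the member highest over the reference, to Brca1, whose treated and control rats did not overlap, and to Brca2, which had 2 probes with different ratios. No bases are in capitals.
Exo1 probe A_43_P22672: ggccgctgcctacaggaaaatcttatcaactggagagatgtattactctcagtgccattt
Brca1 probe A_44_P294650: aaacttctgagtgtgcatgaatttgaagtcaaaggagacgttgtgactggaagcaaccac
Brca2 probe A_42_P745147: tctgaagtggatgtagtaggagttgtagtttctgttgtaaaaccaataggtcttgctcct
Brca2 probe A_44_P386602: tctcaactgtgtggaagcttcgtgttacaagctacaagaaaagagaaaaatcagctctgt

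All 7 genes were higher in the TRAP prostate than in the reference in all 8 rats, which held for 30.8% of all genes tested. Exo1, Chek1, Fancd2 and Chek2 lay above 2-fold in every rat, 4 of 7, against 3.73% of all genes tested. None was at least 2-fold lower than the reference in every rat, against 3.29% of all genes. The median level of the 7 in control rats was 1.86, beside a median of 0.06 over all genes, and all 7 lay above the median of all genes under each of the 5 scalings run. In control rats Exo1 had the highest ratio, followed by Chek1, Fancd2, Chek2, Blm, Brca1 and Brca2, and the ranges of neighbours in that order overlapped for Fancd2 with Chek2 and for Brca1 with Brca2. This is an order of ratios and not of transcript amounts. For Fancd2 and Brca1, with a reference not well above background on any control array, the mean was read as a lower bound at this normalisation only. Exo1 was highest under each of the 5 scalings, and the order below it changed. With the scanner software's ratios Fancd2 (4.39) lay above Chek1 (3.42), Brca1 (3.21) above Chek2 (2.60) and Brca2 (1.58) above Blm (1.29). Brca2 lay above Brca1 with median centring (1.49 against 1.21) and without background subtraction (0.69 against 0.62). Between telmisartan and control rats none of the 7 passed limma's test with Benjamini-Hochberg adjustment over all genes at 0.05, and 0% of all genes did. Without adjustment 1 member, Brca1, had a p under 0.05, against 4.82% of all genes (1118 of 23207).

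**Figure D1:**
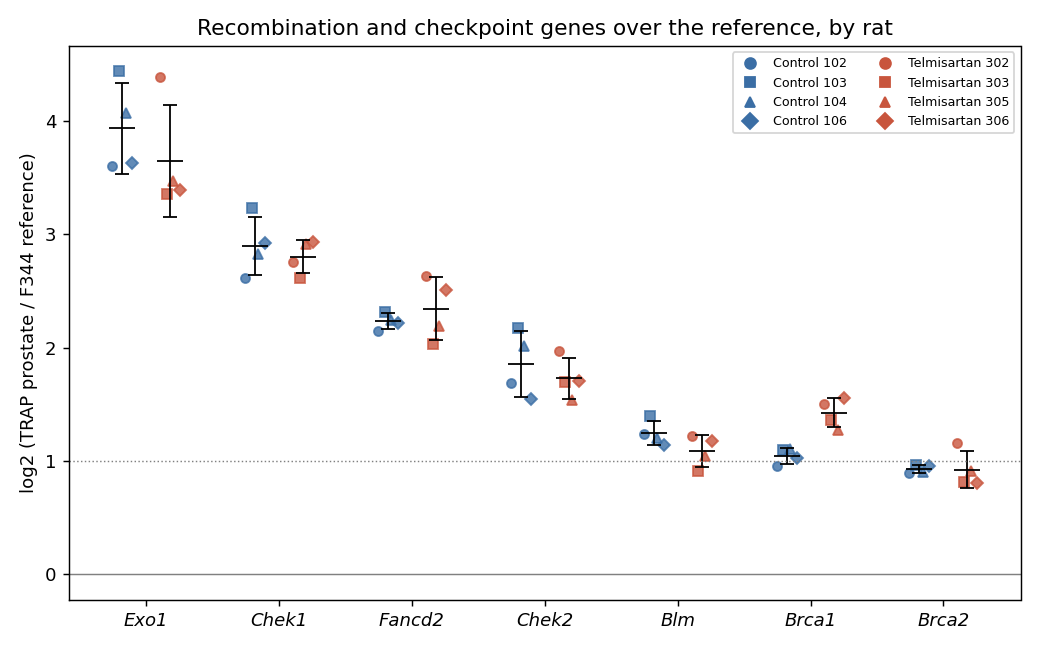
log2(Cy5/Cy3) of the 7 measured genes in each rat, TRAP prostate over F344 reference, on the vertical axis. Each symbol is 1 rat, bars are the mean and SD of 4 rats, and the dotted line marks 2-fold. Exo1 reached 4.44 in Control 103 and 4.39 in Telmisartan 302, and only Brca1 had treated rats all above the control rats.

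Exo1, the 5′ to 3′ exonuclease of end resection and mismatch repair, had values of 3.60, 4.44, 4.07 and 3.63 in Control 102, 103, 104 and 106. In Telmisartan 302, 303, 305 and 306 it had 4.39, 3.36, 3.47 and 3.39. Telmisartan 302 lay near the highest control rat, and the other 3 treated rats lay below all control rats. The means of 3.94 ± 0.40 (SD, n = 4) and 3.65 ± 0.49 (SD, n = 4) correspond to 15.3-fold and 12.6-fold over the reference. The difference, telmisartan minus control, was -0.28 (SE 0.26, 95% interval -0.87 to 0.30, limma adjusted p = 0.981). It was -0.15 within slide 1 and -0.42 within slide 2. Without Telmisartan 302 it was -0.53, and without Control 103 it was -0.12.

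Chek1, the effector kinase of stalled forks, had values of 2.62, 3.23, 2.82 and 2.93 in the control rats in the same order. The treated rats had 2.76, 2.61, 2.91 and 2.93. The groups overlapped, with the highest value in Control 103. Means were 2.90 ± 0.26 (SD, n = 4), or 7.47-fold, and 2.80 ± 0.15 (SD, n = 4), or 6.99-fold. The difference was -0.10 (SE 0.14, 95% interval -0.41 to 0.22, limma adjusted p = 0.989), with -0.24 within slide 1 and 0.05 within slide 2. Without Control 103 it was 0.01, so its sign rested on that rat.

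Chek2, the kinase downstream of Atm at double-strand breaks, had values of 1.69, 2.18, 2.02 and 1.55 in control rats. It had 1.98, 1.69, 1.54 and 1.71 in treated rats. The range was wide in both groups and they overlapped. The difference between 1.86 ± 0.29 (SD, n = 4) and 1.73 ± 0.18 (SD, n = 4) was -0.13 (SE 0.15, 95% interval -0.47 to 0.22, limma adjusted p = 0.986). It was -0.10 within slide 1 and -0.16 within slide 2, and -0.02 without Control 103. The reference channel was well above background on 4 of 4 control arrays and 2 of 4 treated arrays.

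Fancd2 had values of 2.15, 2.32, 2.25 and 2.22 in control rats, a narrow spread. In treated rats it had 2.64, 2.04, 2.19 and 2.51, which reached both above and below the control rats. Its reference signal was not well above background on any of the 8 arrays. At this normalisation the group mean, read as a bound, was at least 4.71-fold over the reference in control rats and at least 5.07-fold in treated rats. Single rats lay below their group's mean, so it is not a bound for each rat. The control level of Fancd2, 2.23, was 1.64 without background subtraction, which is below that bound, and 4.39 with the scanner software's ratios. The fitted difference between 2.23 ± 0.07 (SD, n = 4) and 2.34 ± 0.28 (SD, n = 4) was 0.11 (SE 0.14, 95% interval -0.20 to 0.41, limma adjusted p = 0.988). It was 0.10 within slide 1 and 0.12 within slide 2, and 0.01 without Telmisartan 302. The Cy5 signal alone differed by 0.12 and the reference signal by 0.01.

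Blm, the helicase mutated in Bloom syndrome, had values of 1.24, 1.40, 1.21 and 1.15 in control rats. In treated rats it had 1.22, 0.92, 1.04 and 1.18. The lowest 2 values were both of treated rats, and the groups overlapped. The means were 1.25 ± 0.11 (SD, n = 4), or 2.37-fold, and 1.09 ± 0.14 (SD, n = 4), or 2.13-fold. The difference was -0.16 (SE 0.10, 95% interval -0.39 to 0.07, limma adjusted p = 0.981), with -0.25 within slide 1 and -0.07 within slide 2. Both channels were well above background on all 8 arrays.

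Brca1 had values of 0.96, 1.10, 1.11 and 1.03 in control rats and 1.50, 1.36, 1.28 and 1.56 in treated rats. The lowest treated rat lay above the highest control rat, which held for no other member. Groups that do not overlap were found for 1 of 7 members and for 2.73% of all genes tested. The means of 1.05 ± 0.07 (SD, n = 4) and 1.43 ± 0.13 (SD, n = 4) differed by 0.38 (SE 0.097, 95% interval 0.16 to 0.59, limma adjusted p = 0.922). The difference was 0.41 within slide 1 and 0.35 within slide 2. Brca1 ranked 73 among the 23207 genes by p and did not pass the test.

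The channels behind the Brca1 ratio differed in another way than the ratio. Its Cy5 signal was well above background on all 8 arrays, and its reference signal on none of them. The log2 Cy5 signal was 7.93, 8.06, 7.96 and 8.22 on the control arrays and 8.46, 7.72, 7.98 and 7.45 on the treated arrays, so the groups overlapped and the treated mean was lower by 0.14. The log2 reference signal was 6.97, 6.97, 6.85 and 7.19 on the control arrays and 6.96, 6.36, 6.70 and 5.90 on the treated arrays, a difference of -0.52. The higher ratio thus went with a reference signal that on 3 of the 4 treated arrays lay below all control arrays, in a range not well above background. The lower bound on the group mean of Brca1 at this normalisation was 2.07-fold over the reference in control and 2.30-fold in treated rats. The control level of Brca1, 1.05, was 0.62 without background subtraction, which is below that bound, and 3.21 with the scanner software's ratios. The sign of the difference turned with median centring in place of loess (-0.01), with the scanner software's own ratios (-0.45) and with the Cy5 channel alone, quantile normalised (-0.31).

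**Figure D2:**
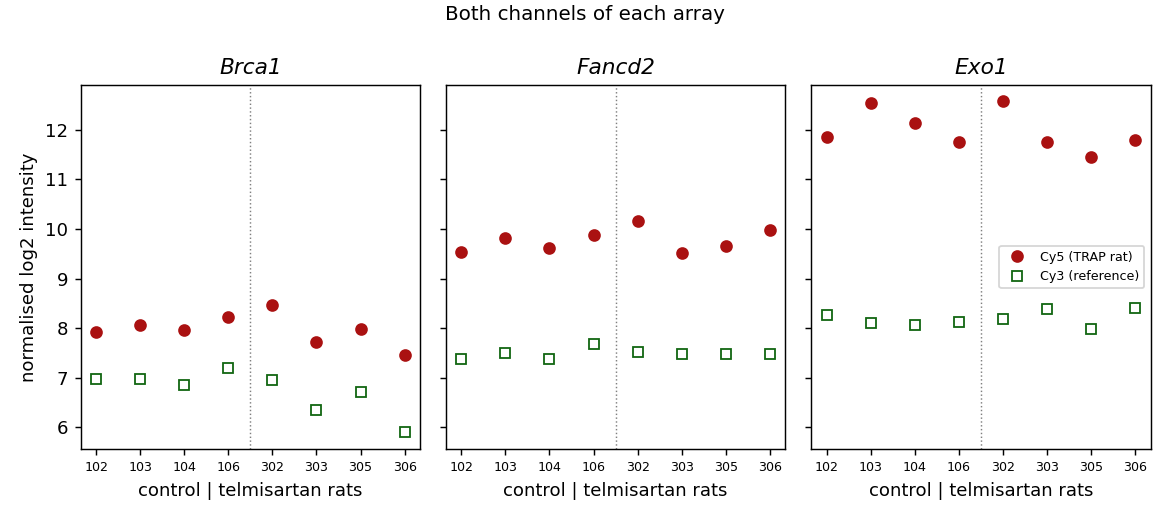
Normalised log2 intensity of Brca1, Fancd2 and Exo1 on each array, with control rats left and treated rats right of the dotted line. Filled circles are Cy5 (the TRAP rat) and open squares are Cy3 (the F344 reference). The Brca1 reference signal was 6.36 in Telmisartan 303 and 5.90 in Telmisartan 306, below the control arrays, while that of Fancd2 differed by 0.01 between the group means.

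Brca2, which acts on resected DNA, was measured by 2 probes against the same transcript, and the brighter one, A_42_P745147, stood for the gene. It had values of 0.89, 0.96, 0.91 and 0.96 in control rats and 1.16, 0.82, 0.91 and 0.81 in treated rats. Control rats were close together, and treated rats lay on both sides of them. The means of 0.93 ± 0.04 (SD, n = 4) and 0.92 ± 0.16 (SD, n = 4) differed by -0.01 (SE 0.10, 95% interval -0.24 to 0.22, limma adjusted p = 0.998). The difference was 0.06 within slide 1 and -0.08 within slide 2. Its reference signal was well above background on 3 of the 8 arrays, all of them control arrays. The treated mean was therefore read as at least 1.90-fold, at this normalisation only. The control level of this probe, 0.93, was 0.69 without background subtraction and 1.58 with the scanner software's ratios.

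The other Brca2 probe, A_44_P386602, gave higher ratios, with 1.50, 1.86, 1.26 and 1.31 in control rats and 1.45, 1.48, 1.09 and 1.09 in treated rats. Its reference signal was not well above background on any array. The group means were therefore read as at least 2.79-fold in control and 2.42-fold in treated rats, at this normalisation only. In control rats the mean of this probe lay above those of Blm and Brca1. The difference between 1.48 ± 0.27 (SD, n = 4) and 1.28 ± 0.21 (SD, n = 4) was -0.20 (SE 0.16, limma adjusted p = 0.997, over all probes). This probe gave the higher ratio in all 8 rats, and neither probe's difference passed the test.

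Msh6 had no probe under its own name. One probe that the file describes as similar to the mismatch repair protein MSH6, outside the rule, had a level of 1.03 ± 0.09 (SD, n = 4) in control and 1.10 ± 0.20 (SD, n = 4) in treated rats. Its difference was 0.08 (SE 0.11, limma adjusted p = 0.998, over all probes), with both channels well above background on all 8 arrays.

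**Figure D3:**
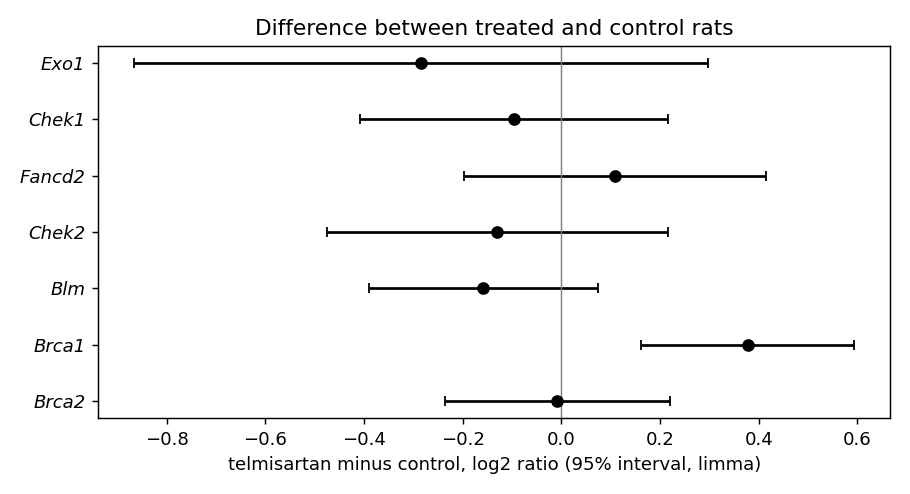
Telmisartan minus control on the log2 ratio scale for the 7 genes, with points for the limma estimate and bars for its 95% interval over 4 and 4 rats. The interval of Brca1 runs from 0.16 to 0.59 before any adjustment over genes, and the other 6 include 0.

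Rats differed from each other in most members at once. Control 103 held the highest control value of 6 of the 7 members, and Telmisartan 302 held the highest treated value of 5 of the 7. The mean of the 7 was 1.88, 2.23, 2.05 and 1.92 in the control rats and 2.23, 1.83, 1.91 and 2.01 in the treated rats. The mean of 14 proliferation genes was 3.22, 3.72, 3.31 and 3.29 in control rats and 3.59, 3.12, 3.25 and 3.33 in treated rats. It was highest in the same rats, Control 103 and Telmisartan 302.

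Markers of T cells were lowest in those 2 rats. The mean of the 8 T cell markers, all 8 measured, ranged from 0.65 to 2.38 in control rats, lowest in Control 103, and from 0.36 to 2.13 in treated rats, lowest in Telmisartan 302. The mean of the 6 macrophage markers ranged from 1.07 to 1.55 and from 0.50 to 1.47, and was lowest in the same 2 rats. Not every macrophage marker followed this order. In control rats Itgam was lowest in Control 102 (2.49) and Cd163 in Control 104 (-0.48), and in treated rats Cd163 was lowest in Telmisartan 306 (-0.43). Between the groups, all 8 T cell markers had a lower mean in treated rats, with a median difference of -0.64, and so did 5 of the 6 macrophage markers, with a median of -0.43. None of them passed limma with adjustment over all genes. Of the 6 macrophage markers 2, Itgam and Mrc1, had an unadjusted limma p under 0.05, against 4.82% of all genes. Treated and control rats did not overlap for 1 of the 6, Itgam, against 2.73% of all genes. The mean of the 7 measured markers of luminal epithelium ranged from -0.93 to -0.53 in control and from -0.85 to -0.61 in treated rats. Among them Pbsn (-2.43 ± 0.41, SD, n = 4) was far below the reference in control rats, and Foxa1 was above it (1.00 ± 0.11, SD, n = 4). The part of cell makeup in the members' values was not tested. Without Control 103 and Telmisartan 302, a choice made after seeing the data, the 7 differences ran from -0.36 to 0.37 and none passed the test.

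**Figure D4:**
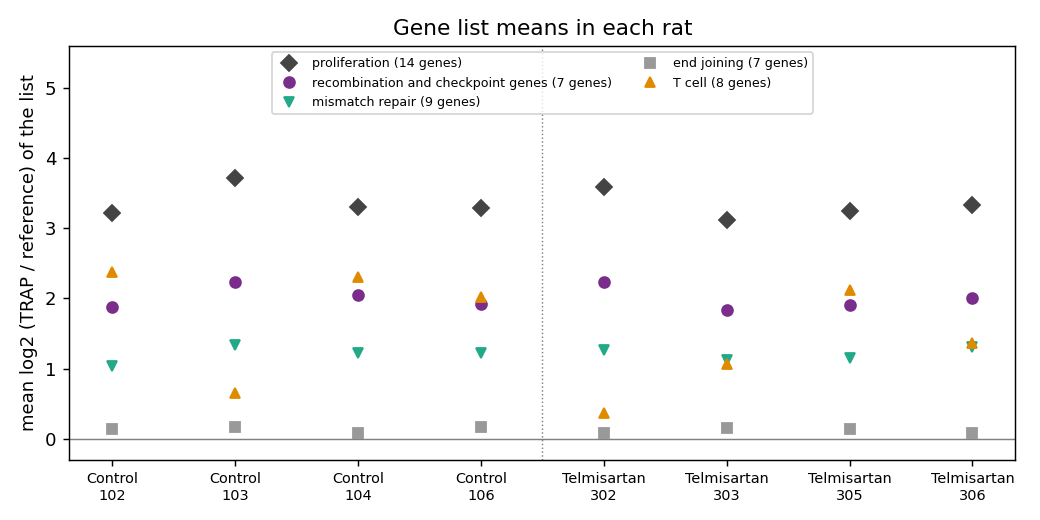
Mean log2(Cy5/Cy3) of 5 gene lists in each rat, control left and treated right of the dotted line. The 7 recombination and checkpoint genes and the 14 proliferation genes were highest in Control 103 and Telmisartan 302, where the 8 T cell markers were lowest.

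The profile over the 8 rats that lay closest to the mean of the members belonged to Rfc2, a subunit of the clamp loader of replication, with a root mean square difference of 0.077 over 8 rats. It was followed by Cenpm, a centromere protein, at 0.087 and Ube2c, the ubiquitin-conjugating enzyme of mitotic exit, at 0.101. Their differences between treated and control rats were 0.01 for Rfc2, 0.10 for Cenpm and -0.03 for Ube2c.

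The wider pathway was read from 6 lists with 84 genes, of which 63 were measured. Of these, 32 had a higher and 31 a lower mean in treated rats, and none passed limma with adjustment over all genes. An unadjusted p under 0.05 was found for 3 of the 63 (4.76%), against 4.82% of all genes, and groups that did not overlap for 2 of the 63 (3.17%), against 2.73%. The share with a lower mean over all genes was 50.6%. Above 2-fold over the reference in every rat were 22 of the 63 (34.9%), against 3.73% of all genes, and none was at least 2-fold lower than the reference in every rat. Between treated and control rats the shares were near those of all genes, and over the reference the share above 2-fold was not.

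Among partners of strand exchange and end resection, 16 of 21 genes were measured, with 8 higher and 8 lower in treated rats and a median difference of -0.003. Bard1, the partner that forms the ubiquitin ligase with Brca1, was at 3.38 ± 0.47 (SD, n = 4) in control and 3.15 ± 0.41 (SD, n = 4) in treated rats, with a reference signal not well above background on any array. Palb2, which joins Brca1 to Brca2, was lower over the reference, at 0.31 ± 0.20 (SD, n = 4) and 0.38 ± 0.36 (SD, n = 4). Bard1 was thus among the 6 genes of the list above 2-fold in every rat, and Palb2 was not.

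Rad52, an annealing protein of single strands, had values of -0.41, -0.34, -0.21 and -0.13 in control rats and -0.05, 0.05, 0.13 and 0.31 in treated rats, with no overlap. The difference was 0.38 (SE 0.11, limma adjusted p = 0.929). For Rad52 the Cy5 signal differed by 0.42 and the reference signal by 0.04, and both channels were well above background on all 8 arrays, unlike Brca1. Rad51d, which supports strand exchange, was at -0.70 ± 0.10 (SD, n = 4) and -0.44 ± 0.09 (SD, n = 4), a difference of 0.26 (limma adjusted p = 0.981), also with no overlap. Rad51b and Rad51c, of the same family, differed by -0.24 and -0.12. The reference signal of Rad51b was not well above background on any array, and it differed by 0.20 while Cy5 differed by -0.04. For Rad51c the reference was well above background on 5 of 8 arrays and differed by 0.27, and Cy5 differed by 0.15, so that the sign of the ratio was not that of Cy5. None of the 4 passed the test.

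Of the checkpoint kinases and their activators 14 of 20 genes were measured, with 7 higher and 7 lower in treated rats and a median difference of 0.007. Clspn, the adaptor through which Atr activates Chek1, was at 1.39 ± 0.27 (SD, n = 4) in control and 1.49 ± 0.15 (SD, n = 4) in treated rats, with a reference signal not well above background on any array. Atm was near the reference, at 0.20 ± 0.10 (SD, n = 4) and 0.22 ± 0.19 (SD, n = 4). The differences of the 4 genes with the smallest p were -0.25 for Cdc25a and -0.12 for Cdc25b, phosphatases that the checkpoint restrains, 0.13 for the ubiquitin ligase Rnf8 and -0.11 for the kinase Wee1. For Cdc25a the reference signal was well above background on 2 of 8 arrays and the Cy5 signal on 7 of 8. Atr and Topbp1 were not among the genes tested.

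Of the Fanconi anaemia genes 10 of 16 were measured, with 7 higher and 3 lower in treated rats and a median difference of 0.03. Fanca, a subunit of the complex that modifies Fancd2, was at 2.26 ± 0.31 (SD, n = 4) in control and 2.54 ± 0.05 (SD, n = 4) in treated rats, a difference of 0.28 (limma adjusted p = 0.981). Fancm, Fancc and Wdr48 differed by 0.14, 0.10 and 0.09. Fanca, Fance, Ube2t and Usp1 were above 2-fold in every rat. Fanci, the partner of Fancd2, was not among the genes tested.

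Of the helicases and resolvases 7 of 10 were measured, with 3 higher and 4 lower in treated rats and a median difference of -0.08. Rmi1, which works with Blm in dissolving joined molecules, was at 1.48 ± 0.11 (SD, n = 4) in control and 1.21 ± 0.16 (SD, n = 4) in treated rats. Its difference of -0.27 had a limma adjusted p of 0.981. Recql4, a helicase of the same family as Blm, was at 3.40 ± 0.29 (SD, n = 4) and 3.23 ± 0.33 (SD, n = 4). Rmi1 and Blm were thus both lower on average in treated rats, and neither passed the test. Eme1 and Gen1, of 2 resolvases, differed by 0.08 and -0.14, each with a reference signal not well above background on any array.

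All 9 mismatch repair genes were measured, with 4 higher and 5 lower in treated rats and a median difference of -0.001. Msh3, which recognises larger loops, lay below the reference, at -0.81 ± 0.34 (SD, n = 4) in control and -0.63 ± 0.16 (SD, n = 4) in treated rats. Pold1, a replicative polymerase subunit, differed by -0.04. Pcna, the sliding clamp, was at 3.07 ± 0.32 (SD, n = 4) and 3.01 ± 0.26 (SD, n = 4). Pcna, Lig1 and Pold1, which also act in replication, were among the 4 genes of the list above 2-fold in every rat.

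Of the end joining genes 7 of 8 were measured, with 3 higher and 4 lower in treated rats. Parp1 alone was above 2-fold in every rat, at 1.15 ± 0.11 (SD, n = 4) in control and 1.11 ± 0.02 (SD, n = 4) in treated rats. Lig4 and Xrcc4, which seal the break in end joining, were below the reference, at -0.74 ± 0.17 (SD, n = 4) and -0.33 ± 0.09 (SD, n = 4) in control rats. Nhej1, their cofactor, was at 0.48 ± 0.22 (SD, n = 4). The median control level of the list was 0.25, against 0.87 for strand exchange, 0.79 for the checkpoint list, 0.88 for the Fanconi list, 0.74 for helicases and resolvases and 1.06 for mismatch repair.

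The 14 proliferation genes were all above 2-fold in every rat, with a median control level of 3.52. E2f8, an E2F repressor made in S phase, was at 4.76 ± 0.41 (SD, n = 4) in control and 4.58 ± 0.41 (SD, n = 4) in treated rats, and E2f1 at 2.85 ± 0.22 (SD, n = 4) and 2.79 ± 0.19 (SD, n = 4). Mki67 and Top2a, markers of dividing cells, differed by 0.06 and 0.04. For Mki67 the reference signal was well above background on 3 of 8 arrays. Ccna2, Rrm2 and Ccnb1 differed by -0.21, -0.15 and -0.10, and Mcm2 by 0.09. In treated rats 4 of the 14 were higher and 10 lower on average, with a median difference of -0.09, and none passed the test.

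**Figure D5:**
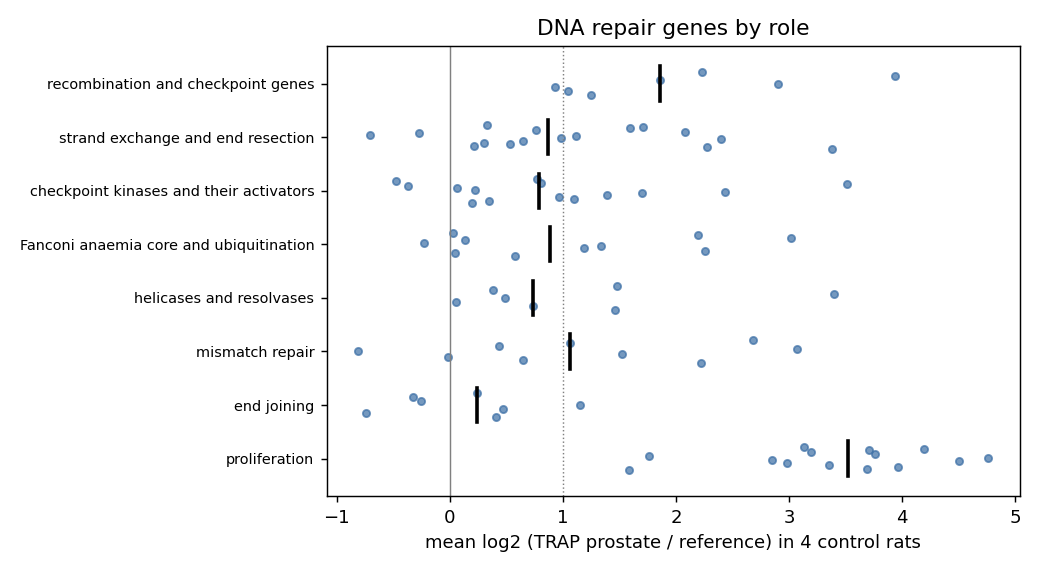
Mean log2(Cy5/Cy3) in the 4 control rats for each measured gene, in rows by role, with a bar at the median of each list and a dotted line at 2-fold. Medians run from 0.25 for end joining to 1.86 for the 7 recombination and checkpoint genes and 3.52 for proliferation.

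Promoters were read because E2F is known to act on several of these genes and the members lay above the reference together. The RefSeq table of GRCr8 gave a window from 250 bases before to 50 bases after the gene start for 6 of the 8 listed genes, Msh6 included. The E2F words searched on both strands were TTCCCGC or TTGGCGC or TTCGCGC or TTGCCGC. At least 1 was found in 4 of the 6 windows, those of Brca1, Chek1, Fancd2 and Msh6, against 9.52% of all 33469 promoters in the table, 27 of 70 (38.6%) for the other repair and checkpoint genes and 4 of 9 (44.4%) for proliferation genes. The cell cycle homology region words TTTGAA or TTCGAA were found in none of the 6, against 19.7% of all promoters. GC content was 61.5% in the 6 windows and 52.7% in all. The windows of Brca1, with 2 words, of Chek1 and Fancd2, with 1 each, and of Exo1, highest over the reference and with none, are shown with the E2F words in capitals, in the direction of the gene.
Brca1 promoter, chr10:86977532-86977831, minus strand: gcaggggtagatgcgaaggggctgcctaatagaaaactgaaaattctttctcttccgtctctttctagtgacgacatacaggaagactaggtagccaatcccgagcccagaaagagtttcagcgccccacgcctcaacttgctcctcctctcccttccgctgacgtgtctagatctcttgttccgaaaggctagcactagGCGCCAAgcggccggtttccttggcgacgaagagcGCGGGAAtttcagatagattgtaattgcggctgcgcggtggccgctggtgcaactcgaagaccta
Chek1 promoter, chr8:44629794-44630093, minus strand: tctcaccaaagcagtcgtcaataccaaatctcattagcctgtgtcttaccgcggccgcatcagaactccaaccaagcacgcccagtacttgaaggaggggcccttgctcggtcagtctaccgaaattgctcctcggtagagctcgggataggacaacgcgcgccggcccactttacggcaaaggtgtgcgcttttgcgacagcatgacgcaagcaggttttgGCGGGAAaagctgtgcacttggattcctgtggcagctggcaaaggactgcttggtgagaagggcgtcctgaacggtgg
Fancd2 promoter, chr4:148234458-148234757, plus strand: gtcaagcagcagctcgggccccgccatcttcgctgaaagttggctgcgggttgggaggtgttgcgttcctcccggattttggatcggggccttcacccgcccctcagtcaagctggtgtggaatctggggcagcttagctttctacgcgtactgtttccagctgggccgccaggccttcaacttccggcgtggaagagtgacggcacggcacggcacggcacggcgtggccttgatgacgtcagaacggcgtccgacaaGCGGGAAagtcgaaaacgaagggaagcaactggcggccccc
Exo1 promoter, chr13:90341768-90342067, plus strand: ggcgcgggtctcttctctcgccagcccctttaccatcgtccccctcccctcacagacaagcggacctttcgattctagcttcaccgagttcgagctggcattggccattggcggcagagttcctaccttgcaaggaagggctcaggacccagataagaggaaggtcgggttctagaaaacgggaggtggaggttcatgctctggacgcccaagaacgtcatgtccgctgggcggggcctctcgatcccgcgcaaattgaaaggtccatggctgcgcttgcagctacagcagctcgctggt

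In Brca1 the words began 50 and 15 bases before the gene start, in Chek1 28 bases before it, and in Fancd2 at base 9 after it. A match is a run of letters and not a measured site, and a window without one says only that these words are not in it. Of the measured members with a window, Exo1 and Brca2 were without a word.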

How the data were processed

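The RNA of each of 8 rats was hybridised to one of 8 two-colour Agilent arrays on 2 slides, with 2 control and 2 treated rats on each, and dyes were not swapped. Extraction was with ISOGEN and amplification with a low-input kit, per the labels' protocols. Images were read with Agilent Feature Extraction 9.1, per the submitters' processing notes. Scanner files, as deposited, hold the mean and local background intensity of each spot in both channels. The deposited series matrix holds log10 ratios of Cy5 over Cy3 that matched the scanner's ratios to within 0.00500, with a median of 0 on every array. Flags and names, deposited as other columns, were used as given. No source used here says whether the reference was 1 pool.

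The intensities were background-corrected with normexp (offset 50) and normalised by loess within arrays (limma 3.58.1 and version 1.17.8 of data.table in R 4.3.3). Signals of single channels and the bounds came after a further normalisation of average intensity between arrays (Aquantile). The setting with the Cy5 channel alone was instead quantile normalised on that channel. Control spots (1639 of 45018) had weight 0 and were left out, as were outlier spots, and spots of a probe were averaged. Of 41012 probes, 27559 passed the scanner's flag for signal well above background in Cy5 on 4 arrays or more, and 27226 of them had a value on every array. The brightest probe stood for a gene, which left 23207 genes, 11423 of them with a symbol. Names came from a RefSeq table of the assembly GRCr8, matched by accession (10735 probes), symbol (5571) or older symbol (3729), and 20977 probes kept the name in the file. Where the reference channel was not well above background on any array of a group, the group's mean ratio was read as a bound. For the bound, the reference was the lowest signal among probes well above background or the probe's own, whichever was higher. Arrays have no read depth, and their number, 4 a group, limits the precision.

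The groups' log2 ratios were compared gene by gene in limma (lmFit, eBayes; two-sided), with p-values adjusted by Benjamini-Hochberg over every gene and a threshold of 0.05, after a test of the script on simulated data. The members and lists were chosen with earlier results of these data known. Named genes were the members, up to 4 genes of each list with the smallest p, a set of central pathway genes, and the 3 genes closest to the members' mean profile. The group at 2 mg/kg per day, one of 3 groups of 36 rats in all, was not analysed here. A few genes that the naming rule covers are not reported here.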

Additional observations from a re-analysis of the deposited data

Results flagged for a closer look

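In 94 groups of 4 rats, 1 rat stood apart from the other 3 in 10, by a gap that exceeded Dixon's 95% critical value of the group's range. Chance flags about 1 in 20 groups. Among the members this was Exo1 in Telmisartan 302, at 4.39 against 3.36 to 3.47 in the other treated rats. The same rat stood apart for Nhej1, at 0.23 against 0.44 to 0.47. Control 103 stood apart for E2f8 (5.38 against 4.49 to 4.60), Ccnb1 (3.63 against 3.23 to 3.29) and Xrcc4 (-0.19 against -0.38 to -0.35). Among the remaining rats, Rrm2 was at 3.47 in Telmisartan 303 against 4.18 to 4.27, and Rnf8 at -0.0846 in Telmisartan 306 against -0.31 to -0.27. Parp1 was at 1.31 in Control 102 against 1.08 to 1.11, Atm at 0.0439 in Control 104 against 0.23 to 0.26, and Lig4 at -0.99 in Control 106 against -0.66 in the others.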

How the results depend on the processing

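No paired analysis was possible because the groups share no replicate numbers. None of the 7 genes, and no single gene of the 7 pathway lists, passed the test under any of the 14 other planned settings, with any 1 rat left out, or without Control 103 and Telmisartan 302. Over all genes, the count called was 0 under those settings and 0 to 1 with 1 rat left out, where it was the transcript BI289714 without Control 102 (1.48, adjusted p = 0.00751) or AI045810 without Telmisartan 303 (-2.02, adjusted p = 0.00597), neither of them a member. The count at an unadjusted p under 0.05, 1118 in the fit reported, ran from 467 in slide 1 alone to 2597 with array weights. It was 1959 without the filter on dim probes, where 35302 genes were tested, 669 to 2019 with 1 rat left out (669 without Telmisartan 306, 1759 without Telmisartan 305, 2019 without Control 103) and 2204 without Control 103 and Telmisartan 302. The signs that turned were those of Brca1 with median centring (-0.013), the series matrix ratios (-0.453) and Cy5 alone (-0.308), of Brca2 with plain subtraction (0.044), the series matrix (0.155), slide 1 alone (0.060) and rats left out (-0.087 to 0.031), of Chek1 in slide 2 alone (0.046), without Control 103 and Telmisartan 302 (0.030) and with rats left out (-0.190 to 0.015), and of Chek2 with the series matrix (0.130), and the cause was not tested. Blm, Exo1 and Fancd2 kept their sign under every setting run. The median level of the members in control rats, 1.86, was 1.42 without background subtraction, 2.66 with median centring and 3.21 with the series matrix. Median centring moved the median of all genes from 0.06 to 0.67, and relative to it the members lay 2.00 higher, against 1.80 in the fit reported. All 7 members lay above 2-fold in every rat with the series matrix and 6 with median centring, against 4, and 4 or 5 did with 1 rat left out. The share of all genes above 2-fold in every rat was counted in the fit reported only (3.73%). The counts under the other settings therefore have no background beside them and are not read as a stronger result. The dim reference signal limits the ratios of Brca1, Brca2 and Fancd2, and that of Chek2 in treated rats, where it was well above background on 2 of 4 arrays.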
